A study of Mus musculus with 8 samples.

Results

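The 43 genes described here encode proteins that copy DNA and package the copy, other than the MCM helicase subunits. They were listed by name with earlier results of these data known, and all were kept whatever their values. They are ordered by the step of replication they serve. The deposited value table held 63 probes with 1 of these gene symbols, covering 40 of the 43 genes. Gins1, Gins2 and Rfc3 had no probe with that symbol in the annotation used here. A probe was tested where it exceeded the detection floor, a limit of about 8.9 intensity units estimated from each array's negative values, on at least 2 of the 8 arrays. That left 54 probes of 37 genes, out of 15944 tested probes of 10772 genes on the array. Orc1, Pola1 and Slbp each had a single probe that exceeded the floor on 0 of 8 arrays, so they were not tested. Of the 37 tested genes, 35 were above the floor on all 8 arrays, Orc2 on 5 and Prim1 on 4. Each gene is represented by its probe of highest mean unless stated otherwise.

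Illumina bead arrays had been hybridised with RNA of primary cells from mouse forelimb and hindlimb buds at embryonic day 11.5. All 3 groups share a strain label with floxed alleles of Sox4 and Sox11 (129XB6-Sox4fl/fl11fl/fl), transcription factor genes of the SoxC group whose flanked part Cre recombinase removes. After 6 h in culture the cells received an adenovirus that expresses Cre for 24 h (AdeCre, 3 arrays, labelled mutant), an adenovirus that expresses the bacterial enzyme LacZ for 24 h (AdeLacZ, 3 arrays, labelled treated control), or no virus (untreated, 2 arrays, labelled wild type in the genotype field, with no time given). AdeCre was set against AdeLacZ to ask what follows when Cre acts on the floxed genes, and AdeLacZ against untreated cells to ask what the virus arm itself differs by. No group received AdeCre without floxed alleles, so an effect of Cre and an effect of the deletion cannot be told apart. Nothing in the labels says that the replicates were separate cultures or litters, so each p value reflects the spread among these 8 arrays, which may be technical, and their small number limits precision. The Sox4 probe read 10.9, 11.8 and 12.9 units on the AdeCre arrays, 66.5, 75.9 and 78.1 on the AdeLacZ arrays, and 68.5 and 110.7 on the untreated arrays, a log2 difference of -1.31 ± 0.13 (SE) between AdeCre and AdeLacZ with a limma adjusted p of 0.00114. Where that probe lies relative to the loxP sites is not given.

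DNA replication begins when the origin recognition complex, with Cdc6 and Cdt1, loads the MCM helicase on DNA in G1 phase. Cyclin E with its kinase helps fire these origins, after which primase and the DNA polymerases copy both strands, the PCNA ring keeps polymerase on the template, and CAF-1 deposits histones behind the fork. E2F transcription factors, held back by the RB protein until late G1, are known to drive many of these genes together. The set can therefore be read as a sign of cycling, which these arrays did not measure. On bulk arrays a lower value can come from fewer cells in S phase, fewer cells of a type or less RNA per cell, and these cannot be told apart.

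Because many of these genes are textbook E2F targets, the 250 bases before each transcription start were searched in RefSeq promoter windows (GRCm38.p6) for 4 E2F-type words, TTTCCCGC, TTTCGCGC, TTTGCCGC and TTTGGCGC, and for the CCAAT word bound by NF-Y, each on both strands. These 4 words do not contain CCAAT. The table held windows for 37 of the 43 genes, and 7 of them (18.9%) had an E2F-type word: Orc1, Orc3, Cdc6, Pola1, Rfc3, Uhrf1 and E2f3. Among the 8696 genes with a tested probe and a window, 3.6% had one, and among 17492 protein-coding genes with a window, 2.72%. The 37 members include Orc1, Pola1, Rfc3 and Slbp, which had no tested probe, so they are not a part of the 8696. The CCAAT word stood in 21 of the 37 genes (56.8%), beside 40.5% of the genes with a tested probe and 39.5% of the protein-coding genes. Ccne2, Prim2, Pole, Rfc2, Gins1 and Gins2 had no window in the table. Of the 6 members that passed a test in at least 1 comparison below, 0 of the 5 with a window had an E2F-type word. The windows shown are those of Rrm1, Rrm2 and Chaf1b, which passed in comparisons below, and of Cdc6 and Uhrf1, which carry an E2F-type word and did not pass. All 5 lie on the plus strand, run 5′ to 3′ and end at the base before the start, and capitals mark the words found.
Rrm1, Rrm2, Chaf1b and Cdc6 are read from chr7:102441445-102441694, chr12:24708004-24708253, chr16:93883651-93883900 and chr11:98907901-98908150, and the Uhrf1 window with the word from chr17:56304063-56304312.
Rrm1: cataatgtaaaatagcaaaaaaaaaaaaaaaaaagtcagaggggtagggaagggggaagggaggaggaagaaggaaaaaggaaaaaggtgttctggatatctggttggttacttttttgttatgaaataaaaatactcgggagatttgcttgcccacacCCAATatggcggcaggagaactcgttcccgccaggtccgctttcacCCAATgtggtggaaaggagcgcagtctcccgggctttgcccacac
Rrm2: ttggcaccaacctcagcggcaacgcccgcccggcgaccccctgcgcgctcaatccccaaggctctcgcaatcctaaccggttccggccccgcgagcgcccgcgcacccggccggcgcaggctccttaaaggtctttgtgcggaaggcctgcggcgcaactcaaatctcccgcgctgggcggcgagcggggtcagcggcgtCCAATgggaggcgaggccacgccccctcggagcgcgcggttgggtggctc
Chaf1b: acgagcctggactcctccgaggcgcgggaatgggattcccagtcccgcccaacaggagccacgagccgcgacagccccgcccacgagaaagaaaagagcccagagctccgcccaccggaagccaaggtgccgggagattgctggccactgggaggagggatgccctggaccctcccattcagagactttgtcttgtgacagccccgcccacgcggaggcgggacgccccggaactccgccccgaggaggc
Cdc6: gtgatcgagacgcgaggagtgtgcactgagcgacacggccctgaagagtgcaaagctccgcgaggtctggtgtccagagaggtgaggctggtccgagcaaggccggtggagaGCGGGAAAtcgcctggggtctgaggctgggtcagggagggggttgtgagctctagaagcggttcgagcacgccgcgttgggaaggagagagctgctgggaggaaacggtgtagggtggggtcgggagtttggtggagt
Uhrf1: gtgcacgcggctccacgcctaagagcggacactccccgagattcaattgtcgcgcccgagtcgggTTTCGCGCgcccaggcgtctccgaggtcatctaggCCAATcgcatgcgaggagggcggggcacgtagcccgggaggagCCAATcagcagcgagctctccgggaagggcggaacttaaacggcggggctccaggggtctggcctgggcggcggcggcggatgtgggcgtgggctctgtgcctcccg
The Rrm1 window has CCAAT words that begin 91 and 45 bases before the start, and the Rrm2 window has one that begins 50 bases before it. The Chaf1b window has none of the words searched. The Cdc6 window holds GCGGGAAA, the reverse complement of TTTCCCGC, and the Uhrf1 window holds TTTCGCGC and CCAAT words at 150 and 107 bases before the start. A match is a run of letters, not a site shown to be bound. Only exact words in these windows were searched, so a gene without a match may still have a site.

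Between AdeCre and AdeLacZ cells, 3 of the 37 tested members passed as lower and 0 as higher (limma on all tested probes, threshold 0.05 on the p adjusted by Benjamini and Hochberg). They were the cyclin gene Ccne2, the histone chaperone subunit gene Chaf1b and the ribonucleotide reductase gene Rrm1. The 3 make up 8.11% of the tested members, beside 2.78% of all 10772 genes that passed as lower and 1.82% as higher. That share depended on single arrays: with any 1 AdeCre array, or AdeLacZ replicate 1 or 3, left out, 1 member passed (2.7%), and without AdeLacZ replicate 2 it was 2 members (5.41%). Of the 37 differences 28 were negative, and their median on the log2 scale was -0.13, beside 0.02 for all tested genes. With the mean over each gene's probes in place of the brightest probe, the median of the members was -0.06. In 11 members (29.7%) every AdeCre array lay below every AdeLacZ array, beside 12.6% of all genes, and in 0 members did every AdeCre array lie above, beside 16.3% of all genes. These 11 were Cdc6, Cdt1, Ccne2, Pold1, Rpa1, Rrm1, Rrm2, Tyms, Chaf1b, E2f1 and E2f2. At an unadjusted limma p under 0.05 there were 7 of the 37 members, beside 2282 of all 10772 genes. By that count the members' share was not above that of all genes. The differences were small: over the 37 members they ran from -0.68 to 0.30, and those that did not pass lay between -0.33 and 0.30, with 95% intervals that reached 0.20 to 0.46 to either side.

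Between AdeLacZ and untreated cells 1 member passed as lower, the ribonucleotide reductase gene Rrm2, and 0 passed as higher (limma). That is 2.7% of the tested members, beside 2.58% of all genes that passed as lower and 2.94% as higher. With AdeCre replicate 1 or 2, or AdeLacZ replicate 1 or 3, left out, 0 members passed. Without AdeLacZ replicate 2 the 1 member that passed was Ccne1, as higher, and Rrm2 did not pass (limma adjusted p = 0.1002). Without untreated replicate 1 the log2 difference of Rrm2 was -0.35. Of the 37 differences 25 were positive, with a median of 0.12 beside a median of about 0 for all tested genes. In 14 members (37.8%) every AdeLacZ array lay above both untreated arrays, beside 20.3% of all genes, and in 5 (13.5%) every one lay below, beside 19.4% of all genes. Between AdeCre and untreated cells, Rrm1, Rrm2 and the single-stranded DNA-binding protein gene Rpa3 passed as lower (8.11% of members, beside 6.06% of all genes) and the cyclin gene Ccne1 as higher (2.7%, beside 7.4%). With any 1 AdeCre array left out, 2 members passed in that comparison, Rpa3 and Rrm2. Without untreated replicate 1 the log2 differences were -0.35 for Rrm1, -0.68 for Rrm2, -0.58 for Rpa3 and 0.37 for Ccne1. The median of that comparison was -0.03, beside 0.02 for all tested genes. These comparisons share arrays, so a high AdeLacZ value enters as negative in one and as positive in another. The mean was highest in AdeLacZ cells for 22 members, in AdeCre cells for 6 and in untreated cells for 9. This split restates the same array values and was not counted over all genes. The median log2 signal over the members was 8.37, 8.44 and 8.40 on the AdeCre arrays, 8.48, 8.52 and 8.58 on the AdeLacZ arrays, and 8.40 and 8.46 on the untreated arrays. The 3 AdeLacZ arrays thus stood above the other 5 in this median, but not all clearly. The SD of this median among arrays of a group was 0.044, and the nearest AdeLacZ (8.48) and untreated (8.46) arrays lay closer than that. No such median over all genes was set beside it.

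**Figure D1:**
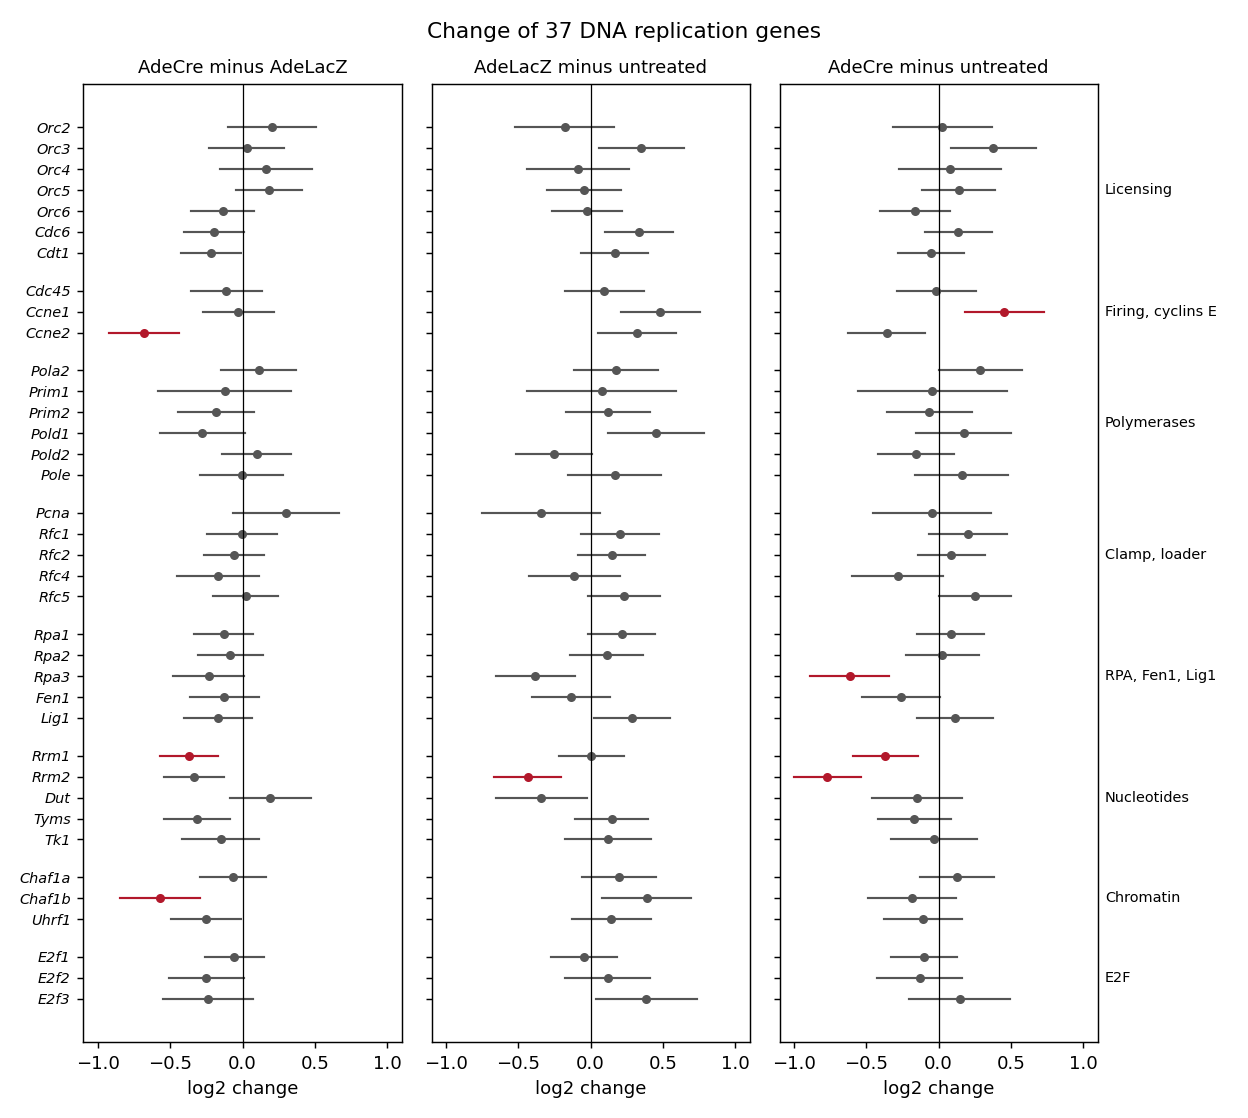
Log2 difference of each of the 37 tested genes (points) with its 95% interval (bars) in the 3 comparisons, grouped by step, with genes past the adjusted threshold in red. Between AdeCre and AdeLacZ 28 of 37 points lie left of 0, and the 3 red ones are Ccne2, Rrm1 and Chaf1b.

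**Figure D2:**
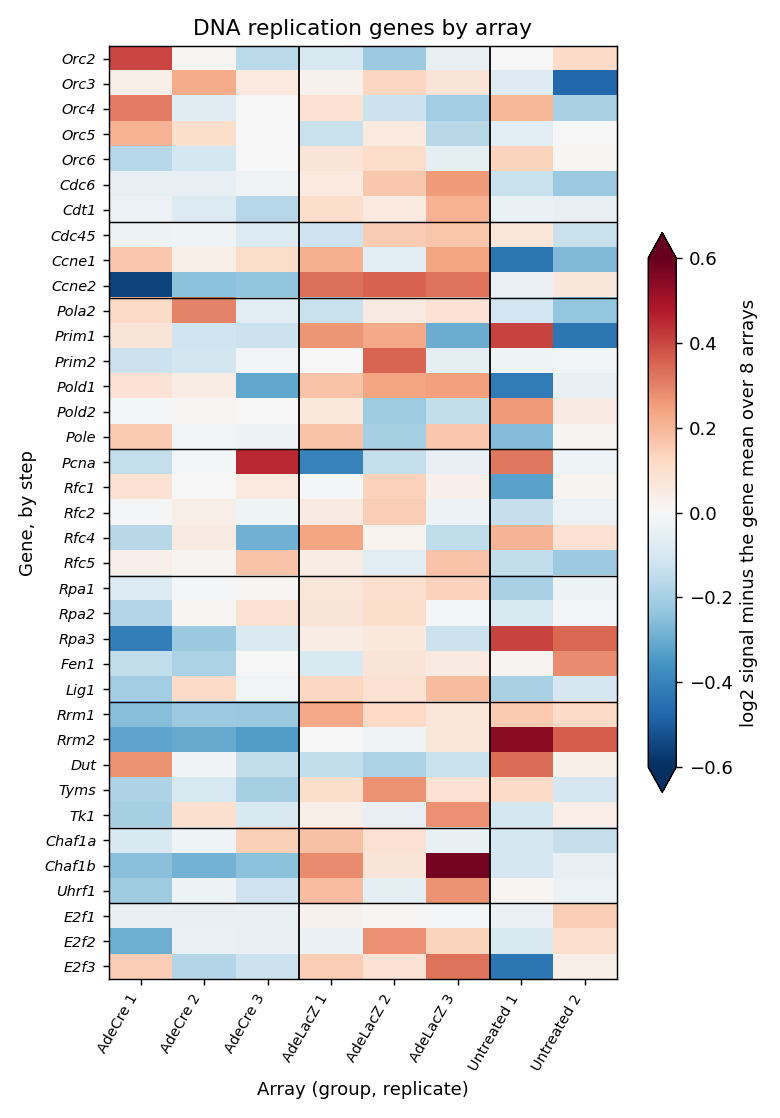
Log2 signal of the 37 tested genes on each of the 8 arrays, minus the gene's own mean over the 8 arrays, with lines between groups and between steps. Ccne2 and Chaf1b are red on all 3 AdeLacZ arrays and blue on all 3 AdeCre arrays, and Rrm2 is red on both untreated arrays and blue on all 3 AdeCre arrays.

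Of the origin licensing genes, 7 of 8 were tested and 0 passed in any comparison. Cdt1, which brings the MCM helicase to origins, read 687, 664 and 621 units in AdeCre cells, 759.5, 734 and 818 in AdeLacZ cells, and 685 and 679.8 in untreated cells. Every AdeCre value lay below every AdeLacZ value, but the log2 difference of -0.22 ± 0.09 did not pass (limma adjusted p = 0.202). Cdc6, the ATPase that loads the helicase with the origin complex, read 302, 302 and 308 units in AdeCre cells, 328, 355 and 380.3 in AdeLacZ cells, and 283 and 265 in untreated cells. Here the 3 groups did not overlap, with AdeLacZ on top, and the log2 differences were -0.20 ± 0.09 for AdeCre against AdeLacZ and 0.34 ± 0.11 for AdeLacZ against untreated (limma adjusted p = 0.249 and 0.0978). Most subunits of the origin recognition complex had positive differences there, none of which passed. Orc5 read 379, 350.4 and 324 units in AdeCre cells, 293, 338 and 286 in AdeLacZ cells, and 308 and 323.5 in untreated cells, overlapping groups with a log2 difference of 0.18 ± 0.10 between AdeCre and AdeLacZ. Orc2 (0.20), Orc3 (0.03) and Orc4 (0.16) also had positive differences in that comparison, whereas Orc6 was at -0.14. Orc2 was dim, from 5.54 to 24.4 units, so its values lie near the floor. The licensing step as a whole had a median of 0.03 for AdeCre against AdeLacZ, -0.03 for AdeLacZ against untreated and 0.08 for AdeCre against untreated cells.

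At origin firing, the gene pair for cyclin E split. Ccne2, which encodes cyclin E2, read 109.9, 143 and 144 units in AdeCre cells, 228, 232 and 228 in AdeLacZ cells, and 169.7 and 185 in untreated cells. The AdeCre arrays were the lowest, the AdeLacZ arrays the highest and the untreated arrays in between, with no overlap between groups. Ccne2 was lower in AdeCre than in AdeLacZ cells by a log2 difference of -0.68 ± 0.11 (95% interval -0.92 to -0.44), a 1.60-fold lower level, with a limma adjusted p of 0.00917. Its differences for AdeLacZ against untreated (0.32 ± 0.12, limma adjusted p = 0.159) and AdeCre against untreated (-0.36 ± 0.12, limma adjusted p = 0.0779) did not pass. Ccne1, which encodes cyclin E1, read 195.7, 177 and 188 units in AdeCre cells, 204, 163.5 and 208 in AdeLacZ cells, and 119 and 138 in untreated cells. All 6 virus-treated arrays lay above both untreated arrays, and the AdeCre and AdeLacZ arrays overlapped. Its log2 difference was -0.03 ± 0.11 for AdeCre against AdeLacZ (95% interval -0.27 to 0.22), 0.48 ± 0.12 for AdeLacZ against untreated (limma adjusted p = 0.051) and 0.45 ± 0.12 for AdeCre against untreated (limma adjusted p = 0.035). Whether the paired genes differed from each other in their response was not tested. The Ccne1 call did not hold without either untreated array (limma adjusted p = 0.209 without replicate 1 and 0.0564 without replicate 2) or without any 1 AdeCre array. Cdc45, which joins the helicase when it is activated, differed by -0.11 ± 0.11 between AdeCre and AdeLacZ cells.

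**Figure D3:**
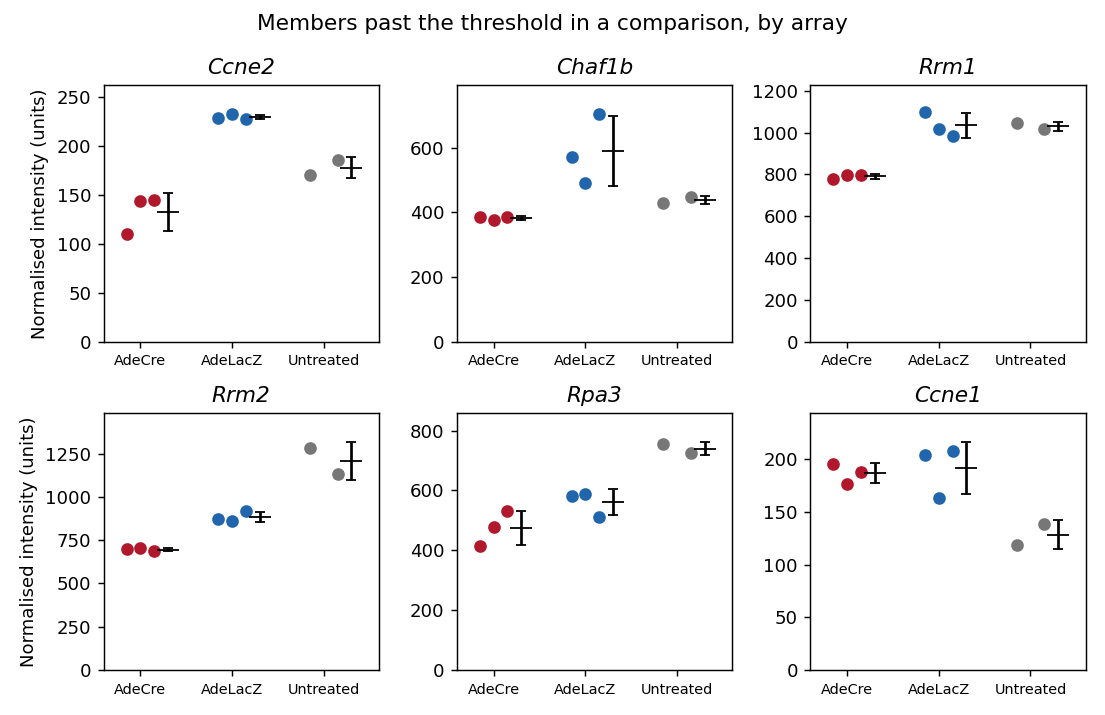
Normalised intensity in arbitrary units, on axes that start at 0, of the 6 genes past the threshold in at least 1 comparison (1 point an array, with the group mean and SD beside the points; n = 3 AdeCre, 3 AdeLacZ and 2 untreated arrays). For Ccne2, Chaf1b and Rrm1 every AdeCre point lies below every AdeLacZ point, while for Ccne1 both untreated points lie below all others.

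Of the polymerase and primase genes, 6 of 7 were tested and 0 passed in any comparison. Pold1, the catalytic subunit of the lagging-strand polymerase delta, read 734, 713 and 551 units in AdeCre cells, 780.2, 819 and 826 in AdeLacZ cells, and 509 and 666 in untreated cells. The AdeLacZ arrays stood above all 5 others, with log2 differences of -0.28 ± 0.13 for AdeCre against AdeLacZ (limma adjusted p = 0.256) and 0.45 ± 0.15 for AdeLacZ against untreated (limma adjusted p = 0.111). Its partner subunit gene Pold2 read 420.4, 427 and 424 units in AdeCre cells, 445, 361 and 380.6 in AdeLacZ cells, and 513 and 439.8 in untreated cells. Those groups overlapped between AdeCre and AdeLacZ, at 0.10 ± 0.11. Prim2, the large primase subunit, differed by -0.18 ± 0.12 between AdeCre and AdeLacZ cells, Pola2, the regulatory subunit of polymerase alpha, by 0.11 ± 0.12 and Pole, the catalytic subunit of the leading-strand polymerase epsilon, by -0.01 ± 0.13. Prim1, the catalytic primase subunit, ran from below 0 to 23.0 units, too dim for its -0.12 ± 0.21 to carry a direction. The median of the step was -0.06 for AdeCre against AdeLacZ, 0.14 for AdeLacZ against untreated and 0.06 for AdeCre against untreated cells.

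The sliding clamp gene Pcna had the most positive difference of the 37 members between AdeCre and AdeLacZ cells, and it was noisy. It read 108.7, 123 and 179.8 units in AdeCre cells, 86.1, 109 and 118 in AdeLacZ cells, and 160.4 and 121 in untreated cells. The AdeCre and AdeLacZ arrays overlapped, with a log2 difference of 0.30 ± 0.17 (95% interval -0.06 to 0.67, limma adjusted p = 0.327). AdeCre array 3 was the highest of all 8. The clamp loader genes Rfc1, Rfc2, Rfc4 and Rfc5, which open the ring and close it on DNA, differed by -0.00, -0.06, -0.17 and 0.02 on the log2 scale between AdeCre and AdeLacZ cells, and their groups overlapped. None of these 5 genes passed in a comparison, with limma adjusted p values from 0.327 to 0.994 for AdeCre against AdeLacZ.

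Among the genes for single-stranded DNA binding and the joining of Okazaki fragments, Rpa3 passed against untreated cells. Rpa3, the smallest subunit of replication protein A, read 416, 479 and 529.8 units in AdeCre cells, 582, 589.8 and 513 in AdeLacZ cells, and 756 and 724 in untreated cells. Both untreated arrays lay above all 6 virus-treated arrays, whose groups overlapped with each other. Its log2 difference from untreated cells was -0.62 ± 0.12 in AdeCre cells (95% interval -0.89 to -0.34, a 1.53-fold lower level, limma adjusted p = 0.00948) and -0.38 ± 0.12 in AdeLacZ cells (limma adjusted p = 0.107). Between AdeCre and AdeLacZ cells it was -0.23 ± 0.11 (limma adjusted p = 0.254). Without untreated replicate 1 the call against AdeCre did not pass (log2 difference -0.58, limma adjusted p = 0.0745). The other subunits of the same complex did not pass: Rpa1, the large DNA-binding subunit, read 2782, 2918 and 2959 units in AdeCre cells, 3092, 3155 and 3242 in AdeLacZ cells, and 2567 and 2886 in untreated cells. The AdeLacZ arrays were again the highest, at -0.13 ± 0.09 for AdeCre against AdeLacZ and 0.21 ± 0.10 for AdeLacZ against untreated. Rpa2, the middle subunit, differed by -0.08 ± 0.10 between AdeCre and AdeLacZ cells, the flap nuclease gene Fen1 by -0.13 ± 0.11 and the ligase gene Lig1 by -0.17 ± 0.11. At the brightest probes all 5 differences of this step were negative in that comparison, with a median of -0.13, and 0 of the 5 passed. Of all tested genes 45.3% had a negative difference there. Rpa2 and Lig1 also had other tested probes with positive differences.

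The genes that supply nucleotides had the lowest median of the 8 steps between AdeCre and AdeLacZ cells, at -0.31 over 5 genes, of which 1 passed. Ribonucleotide reductase makes the deoxynucleotides for replication, with a large subunit from Rrm1 and a small S-phase subunit from Rrm2. Rrm1 read 778, 799 and 798 units in AdeCre cells, 1100.2, 1019 and 984 in AdeLacZ cells, and 1046 and 1015 in untreated cells. The 3 AdeCre arrays lay below the other 5, which overlapped with each other. Rrm1 was lower in AdeCre cells by a log2 difference of -0.37 ± 0.09 against AdeLacZ (95% interval -0.57 to -0.17, a 1.29-fold lower level, limma adjusted p = 0.0439) and by -0.37 ± 0.10 against untreated cells (limma adjusted p = 0.0365), while AdeLacZ and untreated cells differed by 0.00 ± 0.10. Both Rrm1 calls sit close to the threshold. The call against AdeLacZ did not pass without any 1 of the 6 virus-treated arrays (limma adjusted p from 0.087 to 0.127), and the call against untreated cells passed in 1 of the 8 fits that left out an array, the one without AdeLacZ replicate 1 (limma adjusted p up to 0.157, without untreated replicate 1).

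Rrm2 read 696, 702 and 687 units in AdeCre cells, 871, 861 and 919 in AdeLacZ cells, and 1285 and 1130.4 in untreated cells. The groups formed 3 separate levels, with AdeCre lowest and untreated highest. The log2 difference was -0.77 ± 0.10 for AdeCre against untreated (95% interval -1.0 to -0.54, a 1.70-fold lower level, limma adjusted p = 0.00155), the largest in size among the members in that comparison. It was -0.44 ± 0.10 for AdeLacZ against untreated (limma adjusted p = 0.0382) and -0.33 ± 0.09 for AdeCre against AdeLacZ (limma adjusted p = 0.068). The call between AdeLacZ and untreated cells passed in 2 of the 8 fits that left out an array, those without AdeCre replicate 3 or untreated replicate 2, and was weakest without untreated replicate 1 (limma adjusted p = 0.26). The call between AdeCre and untreated cells passed in all 8 (limma adjusted p up to 0.0212). A further Rrm2 probe read 717, 815 and 734 units in AdeCre cells, 830.2, 906 and 1083 in AdeLacZ cells, and 994 and 762 in untreated cells. That probe gave -0.30 for AdeCre against AdeLacZ, 0.10 for AdeLacZ against untreated and -0.20 for AdeCre against untreated, and passed in 0 of the 3, so the fall against untreated cells rests on the first probe.

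Tyms, thymidylate synthase, read 775, 828 and 769 units in AdeCre cells, 954.5, 1073 and 947 in AdeLacZ cells, and 963 and 824 in untreated cells. The AdeCre and AdeLacZ arrays did not overlap, but the log2 difference of -0.31 ± 0.10 did not pass (limma adjusted p = 0.106). Tk1, the S-phase thymidine kinase, differed by -0.15 ± 0.12 between AdeCre and AdeLacZ cells. Dut, which removes dUTP from the pool, was the only nucleotide gene with a positive difference there, 0.19 ± 0.13, from overlapping groups of 95.8, 72.8 and 64.2 units in AdeCre cells, 64.3, 61.6 and 65.1 in AdeLacZ cells, and 101.4 and 76.8 in untreated cells.

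For chromatin assembly, 3 of 4 genes were tested and Chaf1b passed. Chaf1b, the p60 subunit of the histone chaperone CAF-1, read 385, 376 and 387 units in AdeCre cells, 571, 490.5 and 706 in AdeLacZ cells, and 429 and 448 in untreated cells. The 3 AdeCre arrays lay close together and below all others, and the 3 AdeLacZ arrays lay above both untreated arrays. Chaf1b was lower in AdeCre than in AdeLacZ cells by a log2 difference of -0.57 ± 0.12 (95% interval -0.85 to -0.30, a 1.49-fold lower level, limma adjusted p = 0.028). AdeLacZ against untreated gave 0.39 ± 0.14 (limma adjusted p = 0.141) and AdeCre against untreated -0.18 ± 0.14 (limma adjusted p = 0.432). AdeLacZ array 3 carried part of the difference: without it the log2 difference was -0.44 and did not pass (limma adjusted p = 0.084). Nor did the call pass without AdeLacZ replicate 1 or without any 1 of the AdeCre arrays (limma adjusted p from 0.0663 to 0.0834). Chaf1a, the large subunit of the same chaperone, differed by -0.07 ± 0.10 between AdeCre and AdeLacZ cells (95% interval -0.30 to 0.16). Uhrf1, which helps carry DNA methylation to the new strand, read 1535, 1745 and 1633 units in AdeCre cells, 2032, 1710.0 and 2152 in AdeLacZ cells, and 1795 and 1737 in untreated cells. Its groups overlapped, at -0.25 ± 0.11 for AdeCre against AdeLacZ (limma adjusted p = 0.21).

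None of the 3 E2F activator genes passed in a comparison. E2f1 read 420.3, 418 and 420.5 units in AdeCre cells, 443, 437 and 432 in AdeLacZ cells, and 422 and 484 in untreated cells. The AdeCre arrays lay just below the AdeLacZ arrays, and the log2 difference was -0.06 ± 0.09 (95% interval -0.26 to 0.15). E2f2 read 34.0, 46.1 and 45.7 units in AdeCre cells, 46.2, 64.4 and 55.9 in AdeLacZ cells, and 43.4 and 53.9 in untreated cells, a difference of -0.25 ± 0.12 between AdeCre and AdeLacZ (limma adjusted p = 0.254). E2f3 read 276.8, 215 and 223 units in AdeCre cells, 277.6, 264 and 317 in AdeLacZ cells, and 175.5 and 254 in untreated cells, and its groups overlapped between AdeCre and AdeLacZ, at -0.24 ± 0.14 (limma adjusted p = 0.358).

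Different probes of a gene did not always give the same direction. Of the members 12 had several tested probes, 29 in all. Their signs disagreed in 5 genes for AdeCre against AdeLacZ (Cdc6, Prim2, Rpa2, Lig1 and Tk1), in 7 for AdeLacZ against untreated and in 7 for AdeCre against untreated. Lig1, the ligase that joins Okazaki fragments, had 4 tested probes with differences of -0.17, -0.34, 0.09 and 0.22 between AdeCre and AdeLacZ cells. A dimmer Lig1 probe read 66.3, 65.4 and 71.1 units in AdeCre cells, 61.3, 54.1 and 71.2 in AdeLacZ cells, and 47.1 and 29.9 in untreated cells. That probe passed as higher in AdeCre than in untreated cells (0.52 ± 0.13, limma adjusted p = 0.026), whereas the brightest Lig1 probe gave 0.11 ± 0.12 (limma adjusted p = 0.587). Ccne2, Chaf1b, Rrm1, Rpa3 and Ccne1 each had a single tested probe, so no such comparison exists for them.

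**Figure D4:**
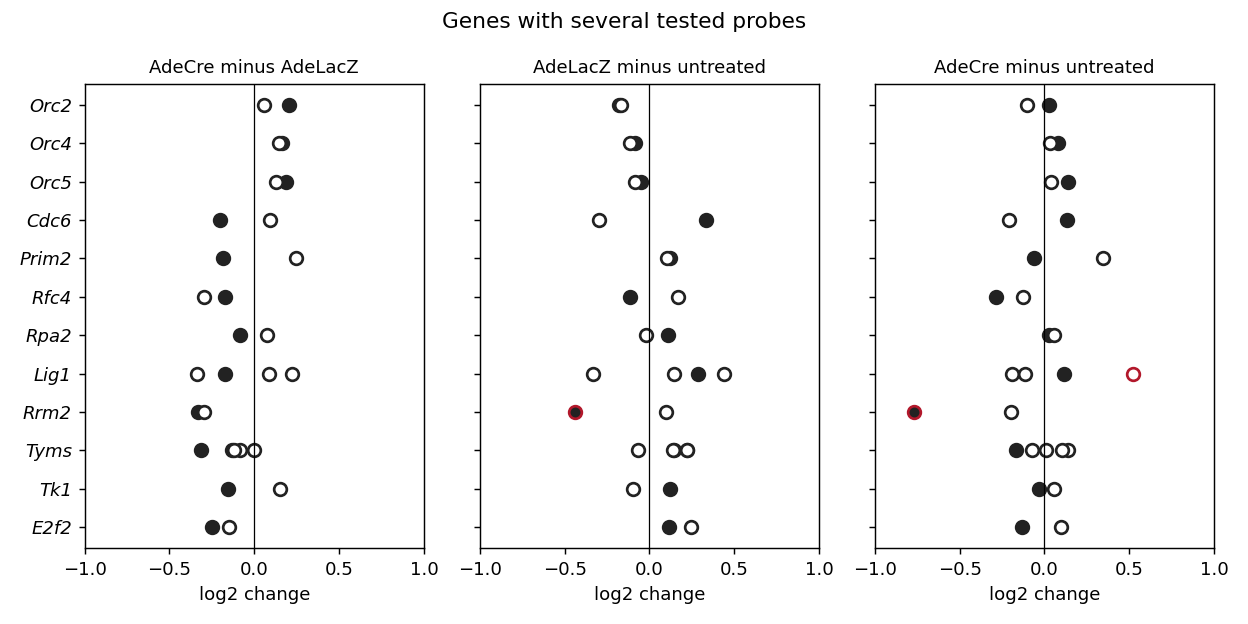
Log2 difference of every tested probe of the 12 genes with several, in the 3 comparisons (filled circle, brightest probe; open circle, other probes; red, past the adjusted threshold). The 4 Lig1 probes lie on both sides of 0 in each panel, and the filled Rrm2 probe lies away from the open one in both comparisons with untreated cells.

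Of 44 other replication genes 32 were tested. Between AdeCre and AdeLacZ cells 4 of the 32 passed as lower and 0 as higher (limma), with a median of -0.15. Of all tested genes 2.78% passed as lower and 1.82% as higher. Top1, the topoisomerase that relieves the twist ahead of the fork, read 234, 259.5 and 269.7 units in AdeCre cells, 421, 464 and 413 in AdeLacZ cells, and 385 and 354 in untreated cells. The 3 AdeCre arrays were the lowest, at -0.70 ± 0.10 against AdeLacZ (limma adjusted p = 0.00531) and -0.49 ± 0.11 against untreated cells (limma adjusted p = 0.0153). The histone chaperone genes Nasp and Asf1a, which hand histones on to CAF-1 and related factors, passed as lower by -0.61 ± 0.11 and -0.55 ± 0.11 against AdeLacZ (limma adjusted p = 0.0137 and 0.0176) and by -0.53 ± 0.12 and -0.41 ± 0.12 against untreated cells (limma adjusted p = 0.0156 and 0.0413). Cdc25a, the phosphatase that activates the kinase partner of cyclin E, was lower by -0.38 ± 0.09 against AdeLacZ (limma adjusted p = 0.0447). Dbf4, the activator of the origin-firing kinase Cdc7, passed between AdeCre and untreated cells (-0.46 ± 0.11, limma adjusted p = 0.0211). Between AdeLacZ and untreated cells 0 of the 32 passed, with a median of 0.11.

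Of 22 listed cyclin D, CDK inhibitor, RB and further E2F genes, 19 were tested and 0 passed between AdeCre and AdeLacZ cells (limma), where the median was 0.01. Those that passed did so against untreated cells. Cdkn2b, whose product p15 blocks the cyclin D kinases, read 845, 943 and 1209 units in AdeCre cells, 799.9, 877 and 962 in AdeLacZ cells, and 2047 and 1694 in untreated cells. Both untreated arrays lay above the other 6, at -1.06 ± 0.16 for AdeLacZ against untreated (limma adjusted p = 0.00413) and -0.89 ± 0.16 for AdeCre against untreated (limma adjusted p = 0.00517). Its neighbour Cdkn2a, which encodes p16 and ARF, was lower by -0.84 ± 0.13 in both AdeLacZ and AdeCre cells than in untreated cells (limma adjusted p = 0.00553 and 0.00291). Cdkn1c, which encodes the CDK inhibitor p57, passed as higher in AdeLacZ than in untreated cells (0.46 ± 0.11, limma adjusted p = 0.0393). Against untreated cells, AdeCre cells were also lower for Cdkn1b, the p27 gene, near the floor at 5.54 to 31.0 units (-0.50 ± 0.14, limma adjusted p = 0.0383), and higher for the cyclin gene Ccnd3 (0.42 ± 0.10, limma adjusted p = 0.0212). For comparison, the 6 MCM helicase genes had medians of -0.37, 0.25 and -0.17 for AdeCre against AdeLacZ, AdeLacZ against untreated and AdeCre against untreated cells, and 3, 0 and 2 of them passed, all as lower. The 15 tested mitosis genes had medians of -0.06, -0.02 and -0.06, with 1, 0 and 3 passing as lower. Of all tested genes 2.78%, 2.58% and 6.06% passed as lower in the same order of comparisons. Whether these lists differ from the members was not tested.

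**Figure D5:**
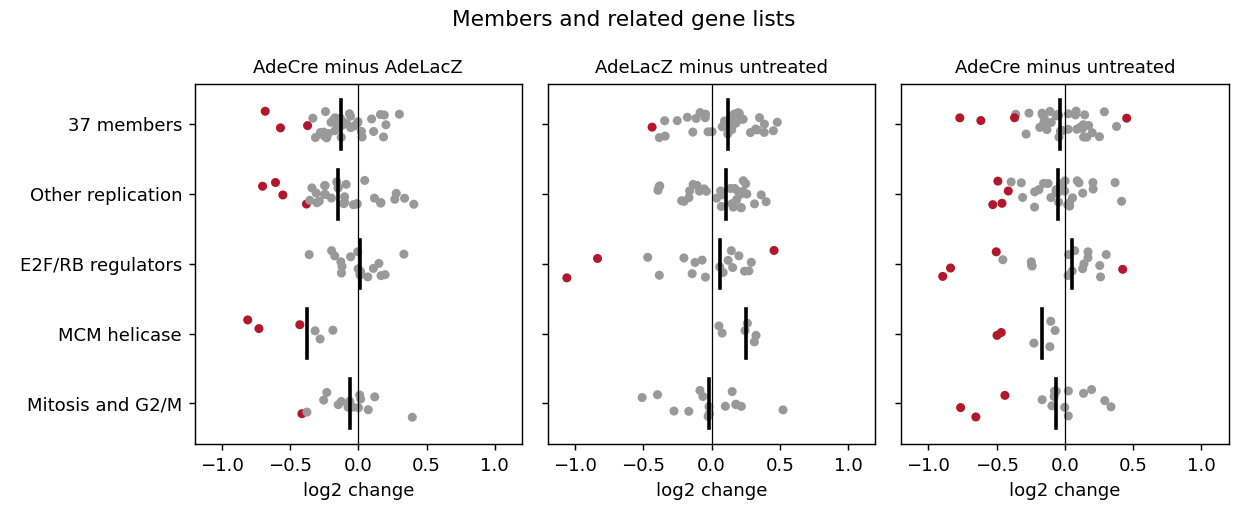
Log2 difference of each tested gene (points, red past the adjusted threshold) and the median (bar) of the 37 members and of 4 related lists, in the 3 comparisons. Between AdeCre and AdeLacZ the medians are -0.13 for the members (-0.06 with each gene's probes averaged), -0.15 for other replication genes, 0.01 for E2F and RB regulators, -0.37 for the MCM genes and -0.06 for mitosis genes.

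The arrays also differed in markers of other cell types, whose part in the results above was not tested. Of 17 limb mesenchyme markers 16 had a probe, all were above the floor on at least 2 arrays, and their summed intensity was 2860 to 3291 units on AdeCre arrays, 3223 to 3450 on AdeLacZ arrays and 3091 to 3279 on untreated arrays. Single mesenchyme markers did change: between AdeCre and AdeLacZ cells 2 of the 16 passed as lower, Hand2 (-0.47) and Lhx9 (-0.53). Between AdeCre and untreated cells 3 passed as lower, Hoxd13 (-1.04), Lhx9 (-0.39) and Twist1 (-0.53), and 2 as higher, Meis1 (1.16) and Meis2 (0.99). Between AdeLacZ and untreated cells Twist1 passed as lower (-0.66), and Meis1 (1.25) and Meis2 (1.08) as higher. Erythroid markers summed to 1349 to 1915 units in AdeCre cells, 4206 to 4763 in AdeLacZ cells and 6127 to 7248 in untreated cells. AdeCre arrays were thus the lowest and untreated arrays the highest in this erythroid sum. The brightest Rrm2 probe had the same order of groups, but the further Rrm2 probe did not. Of 12 erythroid markers 7 were tested and 3 passed as lower between AdeCre and AdeLacZ cells, while the defining genes Gata1 and Alas2 were never above the floor. Macrophage markers, 10 of 13 tested, summed to 315 to 332 units in AdeCre cells, 337 to 379 in AdeLacZ cells and 1040 to 1456 in untreated cells, and 0 passed between AdeCre and AdeLacZ cells against 4 as lower in AdeLacZ and 7 as lower in AdeCre cells relative to untreated cells. The sum of the skeletal muscle markers was highest in AdeCre cells, with 23092 to 24834 units in AdeCre cells, 18905 to 20182 in AdeLacZ cells and 16329 to 18446 in untreated cells, and the progenitor genes Pax3 and Pax7 never above the floor. Of the 7 tested muscle markers 2 passed as higher between AdeCre and AdeLacZ cells, the contractile and cytoskeletal genes Acta1 (0.55) and Des (0.54), whereas the myogenic factor genes Myod1 (-0.23) and Myog (-0.19) had negative differences that did not pass. Neuronal markers summed to 520.1 to 617 units in AdeCre cells, 720.0 to 748 in AdeLacZ cells and 676 to 785 in untreated cells, with Nefl and Snap25 never above the floor. Between AdeCre and AdeLacZ cells 2 of the 8 tested passed as lower, Stmn2 (-0.81) and Dcx (-0.50). Of these 8 differences 5 were negative and 3 positive, those of Ina (0.21), Tubb3 (0.10) and Map2 (0.04). Of all tested genes 2.78% passed as lower in that comparison and 1.82% as higher. Endothelial markers (7 of 10 tested, Cdh5 never above the floor) summed to 1742 to 1844, 1420 to 1601 and 1441 to 1538 units in AdeCre, AdeLacZ and untreated cells. Flt1 made up most of that sum, and 0 endothelial markers passed between AdeCre and AdeLacZ cells. Relative to untreated cells Tek passed as lower in AdeLacZ (-0.68) and AdeCre cells (-0.98), and Flt1 as higher in AdeCre cells (0.45). Surface ectoderm markers (7 of 10 tested, Fgf8 and Krt5 never above the floor) summed to 1344 to 1490, 978 to 1153 and 954 to 1002 units in AdeCre, AdeLacZ and untreated cells. The 2 tested neural crest and Schwann cell markers summed to 102 to 126, 51.9 to 120 and 71.4 to 95.8 units in AdeCre, AdeLacZ and untreated cells. Pairs of arrays correlated at 0.979 to 0.994 over all tested probes on the log2 scale, and 55.9% to 56% of probes were above the floor on each array.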

How the data were processed

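Biotin-labelled RNA from 8 samples was hybridised to Illumina bead arrays. BeadStudio 2.1 is named in the submitters' processing notes. The deposited value table gives an intensity for 25697 probes on a linear scale. Its values (25.7% below 0, column medians 14.56 to 14.68) show that the authors had subtracted background and put the arrays on a shared distribution, by methods not given in the sources used here. A further table with 32 columns named by chip position was not used, because those names match no sample's labels.

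Intensities were corrected with normexp in limma 3.58.1 (R 4.3.3, offset 16, which shrinks changes of dim probes) and log2-transformed. The floor was 1.645 SD of each array's mirrored negative values. Probes carried 1 gene symbol (23978) or none (1719), and 23962 matched RefSeq through Entrez IDs. A model with 3 groups was fitted to all 8 arrays (lmFit, eBayes, 5 residual and 5.64 prior degrees of freedom), with 2-sided tests and Benjamini-Hochberg adjustment over 15944 probes. The fit was tested on simulated data. Errors of log2 differences are SE.

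All members are named. Members past the threshold have every array's value, as do up to 3 others a step by smallest p, and other pathway genes are those that passed (at most 8 in AdeCre against AdeLacZ and 4 in each other comparison). Members, lists and tests were chosen with earlier results of these data known. The promoter words were chosen after the files were seen. Alternatives covered background, offset, normalization, filter, array weights, prior, replicate block, groups fitted, probe averaging and left-out arrays. Figures used matplotlib 3.10.9 (Python 3.11.15).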

Additional observations from a re-analysis of the deposited data

How the results depend on the processing

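The 8 member comparisons past the threshold kept their sign in all 19 alternatives. Of all 111 member comparisons 29 changed sign in at least 1 alternative, all with a reported size of 0.18 or less on the log2 scale, and 94 of the 111 member comparisons passed in no setting, the reported one included. Ccne2 between AdeCre and AdeLacZ and Rrm2 between AdeCre and untreated cells passed in all 19 alternatives (-0.80 to -0.58, and -0.86 to -0.48), Rpa3 between AdeCre and untreated cells in 18, Chaf1b in 11, Rrm1 in 8 of 19 in both its comparisons, Ccne1 between AdeCre and untreated cells in 8, and Rrm2 between AdeLacZ and untreated cells in 6. Members called between AdeCre and AdeLacZ cells numbered 3, against 1 without background correction (by either method), 1 with no filter on dim probes, and 5 with an offset of 50 or with a trended robust prior; between AdeLacZ and untreated cells 1, against 0 in the 2 fits without background correction, with no filter, with array weights or with only the 2 groups, 2 with probes above the floor on all 8 arrays, and 5 with the larger offset or the trended prior; and between AdeCre and untreated cells 4, against 2 with array weights, with no filter or with only the 2 groups. Over all probes the 802 calls between AdeCre and AdeLacZ cells became 503 and 531 without background correction, 1420 with the larger offset, 406 with no filter and 1432 with the trended prior, and the 834 between AdeLacZ and untreated cells became 549, 554, 1440, 486 and 1500. Leaving out 1 array gave 202 to 799 calls, 167 to 864 and 732 to 2034 (2183 with all arrays) in the 3 comparisons, and 1 to 3, 0 to 1 and 2 to 4 members. A lone untreated array was assumed to vary like the other groups. Samples with the same replicate number did not deviate together (correlations -0.14 to 0.02 over 7 pairs). With the replicate block, calls numbered 498, 442 and 1473 and members 2, 0 and 2. The median of the members between AdeCre and AdeLacZ cells was -0.06 with the mean over each gene's probes. Dim genes (Orc2, Prim1) allow no firm statement.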
